A study of Mus musculus with 2 samples.

Results

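The Bcl2 family was examined in heart ventricles of mouse embryos that lack Fendrr, a long non-coding RNA gene, and of wild-type (WT) embryos. Its 10 members were selected by gene symbol out of 23276 symbols in the deposited table: the executioners Bok, Bax and Bak1, the BH3-only genes Bid, Bad and Bcl2l11, the mitophagy receptor gene Bnip3l, and the pro-survival genes Bcl2, Bcl2l1 and Mcl1. The set was chosen on the KO and WT values of Bok, which was already known to be far lower in KO, and the other 9 are relatives picked with earlier results of these data known. All differences below are therefore descriptions without a test. The KO library came from embryos with Fendrr knocked out on both alleles by homologous recombination, and the WT library from embryos of the same mixed background, C57BL/6 x 129SV. All embryos had been made from embryonic stem cells by tetraploid complementation, a method in which a tetraploid host supplies extraembryonic tissue. They were taken at stage E12.5, and 4 ventricles per genotype were pooled into 1 library, sequenced on a run of its own. What differs between the libraries by genotype, by stem cell line or by sequencing run cannot be told apart. Words such as "higher" describe 1 library against the other. The number of stem cell clones is not given in the labels.

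Proteins of this family decide whether the outer mitochondrial membrane stays intact. Executioners form pores in that membrane and release cytochrome c, which switches on caspases through the scaffold protein Apaf1. Pro-survival proteins bind executioners and hold them back, and BH3-only proteins relieve that hold or activate executioners directly. Bok resembles Bax and Bak1 in sequence, but it resides largely on the endoplasmic reticulum, binds inositol trisphosphate (IP3) receptors and is degraded by a pathway of that organelle. In the embryonic heart Mcl1 and Bcl2l1 are known survival genes, and Bnip3l serves the removal of mitochondria in red cells and during low oxygen.

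Values are in FPKM, which divides the fragments of a gene by its length and by the depth of the library, so that levels of different genes can be set side by side. The pattern of values gave the depth of the libraries, at 16400000 fragments in KO and 13100000 in WT. Fendrr itself could not be checked: no row carried its name, and its older symbol 1110050K14Rik had a value of 0 FPKM in KO and in WT. Cardiomyocyte markers fitted the labelled tissue, with Myl2, the ventricular regulatory light chain, at 9478 FPKM in KO and 9103 FPKM in WT. Among 9 markers of liver and yolk sac, Alb was at 0 in both libraries, and the sum was 33.1 FPKM in KO and 9.02 FPKM in WT, of which Afp made up 16.6 FPKM in KO and 0.110 FPKM in WT. Leukocyte markers (8 genes) summed to 29.9 FPKM in KO and 16.9 FPKM in WT, of which Ctss made up 11.8 FPKM in KO and 4.51 FPKM in WT. Cd68, at 1.03 FPKM in KO and 1.44 FPKM in WT, and C1qc, at 2.13 FPKM in KO and 2.32 FPKM in WT, were lower in KO. The other leukocyte markers were higher. Markers of cushion mesenchyme and fibroblasts (9 genes) summed to 1065 FPKM in KO and 815 FPKM in WT. The part of these differences in the results below was not tested. In such bulk samples, fewer cells of a type and less RNA per cell cannot be told apart.

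Each of the 10 members was detected in both libraries and had a mean of at least 1 FPKM, the minimum for the comparisons. Bnip3l was the most abundant member in both libraries, followed by Mcl1 and then Bak1. Bid was the least abundant in both. The order of the others differed: Bok ranked ninth of the 10 in KO and sixth in WT. With 1 library per genotype no spread is at hand to say which neighbours in these orders differ.

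**Figure D1:**
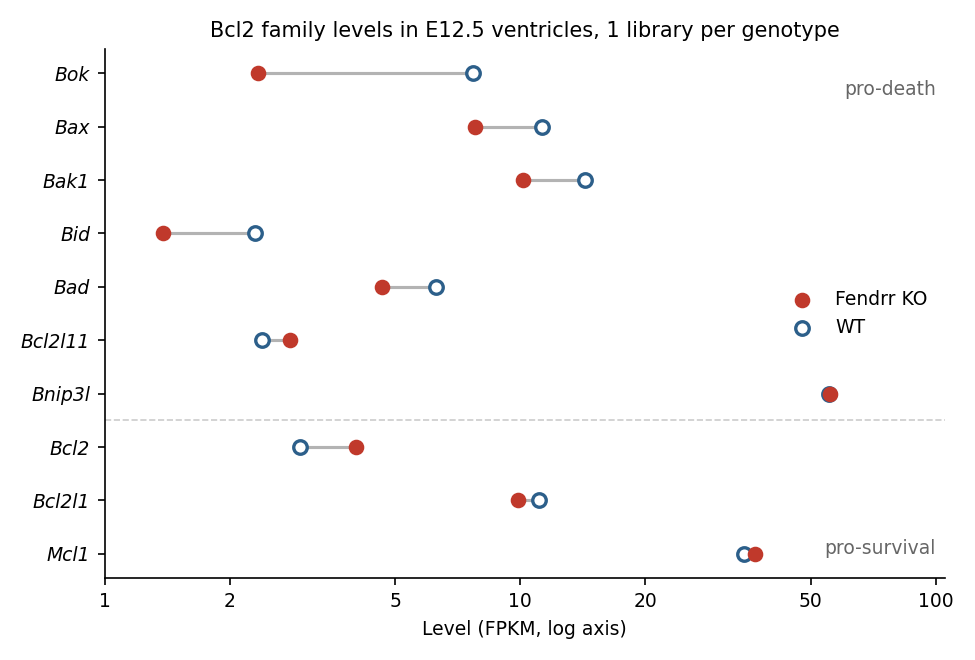
Level of each Bcl2 family member in FPKM on a log axis, with filled points for the Fendrr KO library and open points for the WT library (1 library each, no error bars), and pro-survival members below the dashed line. Bok shows the widest gap, with 2.34 FPKM in KO and 7.68 FPKM in WT, and the 2 points of Bnip3l coincide.

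Bok was at 2.34 FPKM in KO and 7.68 FPKM in WT. The ratio was 0.304, so the WT level was 3.29 times the KO level. On the log2(FPKM + 1) scale, which understates the differences of low genes, the log2 ratio of KO over WT was -1.38. Only Bok, of the 10 members, was at least 2-fold lower in KO on this scale, and none was at least 2-fold higher. Across the 11349 genes that met this minimum, 0.388% were at least 2-fold lower and 0.467% at least 2-fold higher. Since Bok was chosen for this contrast, its count of 1 says nothing about the family. At the weaker limit of 1.5-fold on the same scale, Bok was again the only member lower and none was higher, where 3.6% of all genes were lower and 1.54% higher. As plain ratios, 2 members (Bok and Bid) were at least 1.5-fold lower and none was higher, where 6.58% of all genes were lower and 3.08% higher. Fold limits below are on the log2(FPKM + 1) scale unless a plain ratio is named.

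The Bok values rest on few reads. In the deposited table, 55 KO reads and 144 WT reads over a transcript of 1432 nucleotides match both FPKM values at the depths above. Only lengths near that of an annotated transcript were considered. The exact (Clopper-Pearson) 95% interval of the ratio was 0.219 to 0.417, for counting error alone. Among 4510 genes with a mean FPKM within 2-fold of that of Bok, 4 had a lower log2 ratio. Over all genes of the comparison, 13 did. Bok was chosen for its gap between these libraries, so these places are descriptions and not a test. The gene nearest the 2-fold limit inside it had a log2 ratio of -1.003 and the nearest outside it -0.993. With a pseudocount of 5 FPKM the log2 ratio of Bok was -0.79, which did not reach the 2-fold limit.

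**Figure D2:**
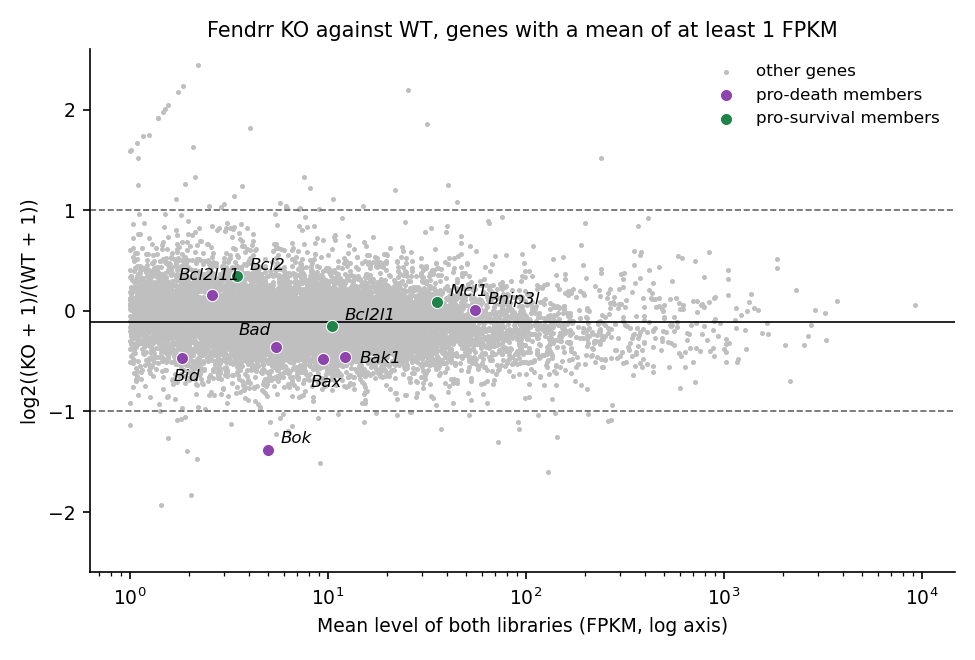
Log2((KO + 1)/(WT + 1)) of each gene against its mean FPKM on a log axis, for genes that average 1 FPKM or more, with pro-death members in purple, pro-survival members in green and other genes in grey. Dashed lines mark 2-fold and the solid line the median of all genes, -0.11, and the log2 axis is cut at 2.6 on either side, which leaves 18 genes out. Bok is the single member past a dashed line.

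The other executioners were also lower in KO, by much less. Bax, the main cytosolic executioner, was at 7.77 FPKM in KO and 11.3 FPKM in WT, a ratio of 0.690. Bak1, its counterpart resident in the mitochondrial membrane, was at 10.1 FPKM in KO and 14.3 FPKM in WT, a ratio of 0.709. Their log2 ratios were -0.48 for Bax and -0.46 for Bak1, and 7.15% and 8.40% of all genes had lower ones. The median log2 ratio of all genes was -0.11, and 95% of genes lay between -0.64 and 0.49, a range that holds Bax and Bak1 but not Bok. Counting intervals for the ratio ran from 0.530 to 0.897 for Bax, with 111 KO and 128 WT reads, and from 0.610 to 0.824 for Bak1, with 334 KO and 375 WT reads. Both lay below 0.915, the median ratio of all genes. Bok made up 11.5% of the summed executioner FPKM in KO and 23.1% in WT.

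**Figure D3:**
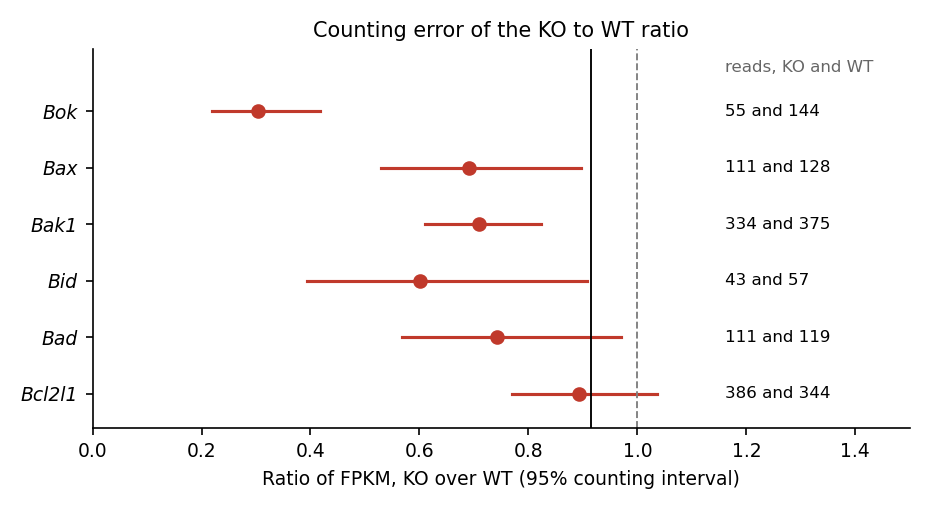
Ratio of FPKM, KO over WT, for the 6 members whose reads could be recovered, with exact 95% counting intervals as bars and the reads of each library printed on the right. The dashed line marks equal levels and the solid line the median ratio of all genes, 0.915. The interval of Bok ends at 0.417, below the start of each of the other intervals except that of Bid, which begins at 0.394. Bok was chosen for its gap between these libraries, so its place beside the others is a description and not a test.

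Start-site windows are shown for the executioners only, although Bid and Bad were lower in KO as well. Whether any letters in the windows go with the direction of a gene was not tested. The windows are the 300 bases from 250 before to 50 after the annotated start. They come from RefSeq on GRCm38.p6, a later build than the mm9 named for the values. Capitals mark GC boxes and E-boxes on either strand. A GC box reads GGGCGG, or in reverse complement CCGCCC. By E-box only the letters CACGTG are meant here, which read the same in both directions. Other forms of the E-box were not searched.

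Bok, chr1:93685325-93685624, plus strand: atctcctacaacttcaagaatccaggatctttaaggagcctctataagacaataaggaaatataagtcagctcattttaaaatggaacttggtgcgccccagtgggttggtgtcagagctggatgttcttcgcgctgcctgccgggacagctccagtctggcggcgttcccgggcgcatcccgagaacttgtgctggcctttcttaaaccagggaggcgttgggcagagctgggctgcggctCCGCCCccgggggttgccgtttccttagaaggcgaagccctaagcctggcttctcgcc

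Bax, chr7:45466849-45467148, minus strand: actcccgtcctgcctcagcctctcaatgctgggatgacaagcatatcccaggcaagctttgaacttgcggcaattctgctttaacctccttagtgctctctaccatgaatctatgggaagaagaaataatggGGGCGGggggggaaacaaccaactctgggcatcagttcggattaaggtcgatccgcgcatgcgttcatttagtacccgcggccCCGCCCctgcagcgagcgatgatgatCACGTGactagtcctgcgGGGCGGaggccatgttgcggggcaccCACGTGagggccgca

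Bak1, chr17:27028578-27028877, minus strand: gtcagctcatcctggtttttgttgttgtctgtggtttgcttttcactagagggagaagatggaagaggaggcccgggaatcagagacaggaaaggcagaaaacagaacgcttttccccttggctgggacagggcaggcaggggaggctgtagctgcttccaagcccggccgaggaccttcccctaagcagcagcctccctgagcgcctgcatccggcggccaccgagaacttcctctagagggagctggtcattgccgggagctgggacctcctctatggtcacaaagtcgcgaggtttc

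The window of Bok held 1 GC box and no E-box, that of Bax 3 GC boxes and 2 E-boxes, and that of Bak1 neither. Of 32851 windows of this length, 35.7% held a GC box and 7.15% an E-box on either strand. None of the 3 windows held the letters CCAAT on either strand, which 37.4% of all windows held. Likewise none held the TATA box letters TATAAA, present in 13.6% of all windows. None held a forkhead core, written TGTTTAC, present in 3.65%. GC content was similar, at 56.3% for Bok, 57.3% for Bax and 58.3% for Bak1, and the windows held 16, 19 and 11 CpG dinucleotides. The matches are descriptions of these letters and not sites of binding.

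None of the genes next to Bok on chromosome 1 was as far below its WT level as Bok, but some were lower in KO. On one side, in order from Bok, Stk25 was at 20.2 FPKM in KO and 21.7 FPKM in WT, Farp2 at 1.57 FPKM in KO and 1.11 FPKM in WT, and Sept2 at 186 FPKM in KO and 185 FPKM in WT. On the other side Thap4 was at 7.83 FPKM in KO and 9.76 FPKM in WT, the autophagy protease gene Atg4b at 9.31 FPKM in KO and 10.3 FPKM in WT, and Dtymk, a thymidylate kinase gene, at 36.0 FPKM in KO and 51.8 FPKM in WT. The log2 ratios of these 6 neighbours lay between -0.51 for Dtymk and 0.28 for Farp2, against -1.38 for Bok. That of Dtymk was slightly below those of Bax and Bak1. The gene order is that of RefSeq on GRCm38.p6. Bcl2 lies on the same chromosome as Bok and was higher in KO.

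The BH3-only genes differed in direction. Bid, which links death receptors to mitochondria once caspase 8 has cut it, was at 1.38 FPKM in KO and 2.30 FPKM in WT (log2 ratio -0.47), from 43 KO and 57 WT reads. The counting interval of its ratio of 0.600 was wide, from 0.394 to 0.908. Bad, which growth factor signalling keeps phosphorylated and inactive, was at 4.65 FPKM in KO and 6.26 FPKM in WT (log2 ratio -0.36). Its ratio of 0.742 had an interval of 0.568 to 0.970, from 111 KO and 119 WT reads, which includes the median ratio of all genes. Bcl2l11, which encodes Bim, a strong activator of Bax and Bak1, went the other way, at 2.79 FPKM in KO and 2.39 FPKM in WT (log2 ratio 0.16). Of the 6 executioner and BH3-only genes, 5 were below their WT level in KO, among them Bok, which was chosen for it. Of all genes, 67.0% were below their WT level in KO. Relative to the median of all genes Bid was lower by 0.36, Bad lower by 0.25 and Bcl2l11 higher by 0.27 in log2 ratio.

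Bnip3l was level in the 2 libraries, at 55.5 FPKM in KO and 55.3 FPKM in WT (log2 ratio 0.0042). It encodes NIX, an outer membrane receptor that marks mitochondria for autophagy, and is counted with the pro-death genes by its weak BH3-like region. It is also a gene of maturing red cells, and the erythroid markers (10 genes) summed to 5483 FPKM in KO and 4867 FPKM in WT, with Hbb-y, the main embryonic beta-like globin, at 2893 FPKM in KO and 2867 FPKM in WT. The part of blood cells in the Bnip3l level was not tested.

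The pro-survival genes lay on both sides of their WT levels. Bcl2, the founding member, was at 4.02 FPKM in KO and 2.95 FPKM in WT, a ratio of 1.37 and a log2 ratio of 0.35, higher than 94.6% of all genes. Bcl2l1, which encodes Bcl-xL, was at 9.90 FPKM in KO and 11.1 FPKM in WT (log2 ratio -0.15). Its 386 KO and 344 WT reads gave a ratio of 0.893 with an interval of 0.770 to 1.04, which includes both equal levels and the median of all genes. Mcl1, which encodes a short-lived protein, was at 36.8 FPKM in KO and 34.5 FPKM in WT (log2 ratio 0.088). Bcl2 was the member furthest above its WT level, and it stayed within 1.5-fold, also as a plain ratio.

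The summed level of the 7 pro-death members was lower in KO, and that of the 3 pro-survival members was slightly higher. The 7 pro-death genes had a median log2 ratio of -0.46, the 3 pro-survival genes one of 0.088, and all genes one of -0.11. Of the pro-death genes 5 of 7 were below the all-gene median, and of the pro-survival genes 2 of 3 were above it. Pro-death FPKM summed to 84.5 in KO and 99.5 in WT, and pro-survival FPKM to 50.7 in KO and 48.6 in WT. The quotient of pro-death over pro-survival sums was 1.67 in KO and 2.05 in WT, a log2 ratio of -0.30.

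That quotient is ruled by 2 genes, since Bnip3l made up 65.6% of the pro-death sum in KO and 55.6% in WT, and Mcl1 72.5% of the pro-survival sum in KO and 71.1% in WT. Without Bnip3l the pro-death sum was 29.1 FPKM in KO and 44.2 FPKM in WT, and the quotient 0.573 in KO and 0.910 in WT (log2 ratio -0.67). Without Bok the quotient was 1.62 in KO and 1.89 in WT (log2 ratio -0.22). The other members were also picked with earlier results of these data known, so this value is a description and no independent support. The 3 executioners over the pro-survival genes gave 0.399 in KO and 0.684 in WT (log2 ratio -0.78). Adding the other family genes, of which Bnip3 is the most abundant, brought the quotients to 3.31 in KO and 3.49 in WT (log2 ratio -0.074). The pro-death sum was then higher in KO, at 202.4 FPKM in KO and 199.6 FPKM in WT, beside a pro-survival sum of 61.1 FPKM in KO and 57.3 FPKM in WT. The quotient was lower in KO in each of these settings. These are quotients of RNA, and no protein was measured.

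**Figure D4:**
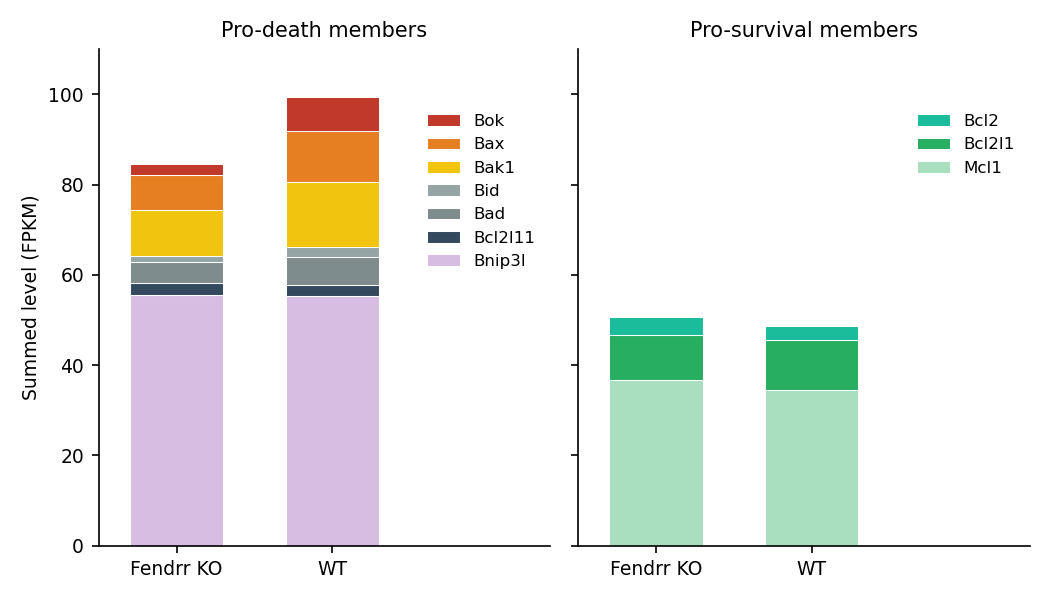
Summed FPKM of the 7 pro-death members and of the 3 pro-survival members, stacked by gene, with the Fendrr KO library left of the WT library in each panel (1 library each, no error bars). The pro-death sums are 84.5 FPKM in KO and 99.5 FPKM in WT, and the pro-survival sums 50.7 FPKM in KO and 48.6 FPKM in WT.

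Other genes of the family were mostly low. Of the 9 other pro-death genes, 4 met the minimum, and their median log2 ratio was -0.067. Bnip3, the close relative of Bnip3l and a target of hypoxia factors, was at 104.5 FPKM in KO and 85.0 FPKM in WT (log2 ratio 0.30). The BH3-only gene Bik was at 2.77 FPKM in KO and 4.05 FPKM in WT (log2 ratio -0.42), and Bcl2l13, a mitophagy receptor gene, at 4.76 FPKM in KO and 5.43 FPKM in WT (log2 ratio -0.16). The p53-responsive genes Bbc3 (Puma) and Pmaip1 (Noxa) were under 1 FPKM, Bbc3 at 0.585 FPKM in KO and 0.657 FPKM in WT and Pmaip1 at 0.619 FPKM in KO and 0.288 FPKM in WT. Among the 7 other pro-survival genes, 2 passed the minimum and both were higher in KO: Bcl2l2 (Bcl-w) at 5.06 FPKM in KO and 4.08 FPKM in WT, and Bcl2l12 at 4.64 FPKM in KO and 3.63 FPKM in WT.

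Downstream, the caspase genes lay on both sides of the all-gene median. Of 14 genes of the apoptosome and caspases, all expressed, none was 2-fold apart, 6 exceeded the all-gene median and 8 did not, and their median log2 ratio was -0.13. Casp6, an effector caspase gene, was at 12.0 FPKM in KO and 6.99 FPKM in WT (log2 ratio 0.71). Casp6 was the only one of the 14 that was at least 1.5-fold apart. Cycs, the gene of cytochrome c, was at 185 FPKM in KO and 224 FPKM in WT, and Aifm1, which encodes a flavoprotein of the space between the mitochondrial membranes, at 61.9 FPKM in KO and 57.3 FPKM in WT. The caspase inhibitors (5 expressed of 9 listed) had a median log2 ratio of -0.13, with Birc5 (survivin), a gene of dividing cells, at 77.8 FPKM in KO and 85.2 FPKM in WT, Birc2 at 10.9 FPKM in KO and 13.2 FPKM in WT, and Xiap at 7.76 FPKM in KO and 7.58 FPKM in WT.

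Of the death receptor pathway 7 of 10 genes were expressed, with a median log2 ratio of -0.20. Tradd, an adaptor of the TNF receptor, was at 1.01 FPKM in KO and 2.32 FPKM in WT (log2 ratio -0.72), the furthest of this list and past 1.5-fold. As a plain ratio it was more than 2-fold lower. Fas, the receptor gene, was at 1.22 FPKM in KO and 0.977 FPKM in WT. Ripk1 was at 4.34 FPKM in KO and 5.15 FPKM in WT, and Cflar, which encodes an inhibitor of caspase 8, at 10.2 FPKM in KO and 10.3 FPKM in WT. Of 15 expressed genes of p53 and its targets, 11 were below the all-gene median, the list median log2 ratio was -0.25 and none was at least 1.5-fold apart on the log2(FPKM + 1) scale, which shrinks the gap of the low gene Sesn2. Ccng1, a p53 target that encodes cyclin G1, was at 74.9 FPKM in KO and 101.4 FPKM in WT, Perp at 21.4 FPKM in KO and 26.5 FPKM in WT, and Sesn2 at 0.847 FPKM in KO and 1.67 FPKM in WT.

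Genes of IP3 receptors and Bok turnover (10 genes, all expressed) had a median log2 ratio of 0.040, with 7 above the median of all genes. The receptor genes Itpr2, at 7.74 FPKM in KO and 4.93 FPKM in WT, and Itpr3, at 2.12 FPKM in KO and 1.29 FPKM in WT, were the highest of the list relative to WT (log2 ratios 0.56 and 0.44). Vcp, the gene of the ATPase that extracts proteins from the membrane, was at 144 FPKM in KO and 162 FPKM in WT.

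Mitochondrial lists lay slightly below or near the median of all genes. Outer membrane pores and partners (12 expressed) had a median log2 ratio of -0.19, with the channel genes Vdac2 at 298 FPKM in KO and 372 FPKM in WT and Vdac3 at 218 FPKM in KO and 250 FPKM in WT. The 14-3-3 genes, whose proteins hold phosphorylated Bad, were on both sides, with Ywhae at 174 FPKM in KO and 140 FPKM in WT and Ywhaq at 134 FPKM in KO and 173 FPKM in WT. Mitochondrial dynamics (9 expressed) had a median of -0.19, with the fission gene Fis1 at 30.8 FPKM in KO and 47.4 FPKM in WT (log2 ratio -0.61), past 1.5-fold, and the protease gene Yme1l1 at 36.3 FPKM in KO and 45.9 FPKM in WT. Mitophagy and autophagy genes (15 expressed) had a median of -0.064. Pink1, the kinase gene of the other mitophagy route, was at 15.3 FPKM in KO and 21.3 FPKM in WT, the prohibitin gene Phb2 at 115 FPKM in KO and 156 FPKM in WT, and Gabarap at 90.6 FPKM in KO and 82.2 FPKM in WT. Fundc1, a mitophagy receptor gene, was at 24.0 FPKM in KO and 19.5 FPKM in WT. Genes of Mcl1 turnover (6 expressed) had a median of -0.014, with the deubiquitinase gene Usp9x at 27.2 FPKM in KO and 28.3 FPKM in WT and the ubiquitin ligase gene Fbxw7 at 9.76 FPKM in KO and 7.96 FPKM in WT. The pseudokinase genes Trib2, at 20.6 FPKM in KO and 23.7 FPKM in WT, and Trib1, at 1.92 FPKM in KO and 1.78 FPKM in WT, lay on either side.

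**Figure D5:**
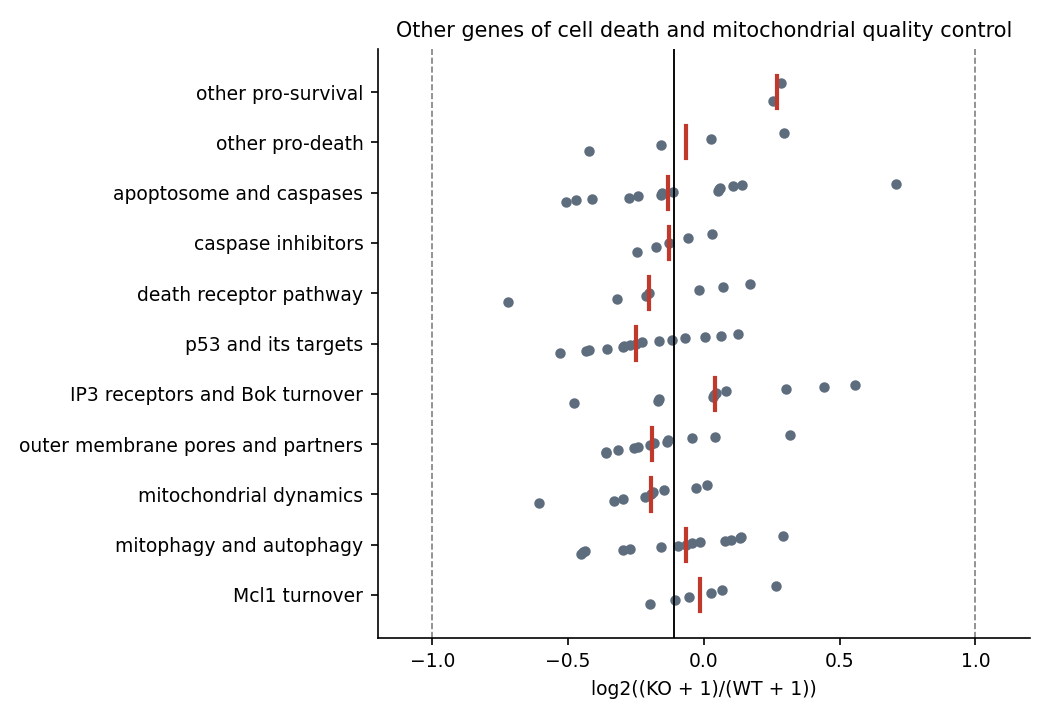
Log2((KO + 1)/(WT + 1)) of each expressed gene in 11 lists around cell death, with 1 point per gene and a red bar at each list's median. The solid line is the median of all genes, -0.11, and dashed lines mark 2-fold, which no gene of these lists passed on this scale.

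By level and log2 ratio over the 2 libraries, the genes most like Bok among those with a mean FPKM within 2-fold of its own were Hist4h4, Tagln3, Lrwd1 and Tgoln2, whose log2 ratios differed from that of Bok by 0.13, 0.15, 0.18 and 0.23. Tagln3, a neuronal relative of transgelin, was at 2.88 FPKM in KO and 8.08 FPKM in WT. It is also on the list of neuron and neural crest markers, whose 10 genes summed to 8.77 FPKM in KO and 14.2 FPKM in WT, most of it the gap of Tagln3, the only one of them 2-fold apart on the log2(FPKM + 1) scale. Most of the others were low. Tubb3 was at 1.69 FPKM in KO and 2.35 FPKM in WT, and Nefl at 0.881 FPKM in KO and 1.22 FPKM in WT, both lower in KO. Stmn2 was at 1.18 FPKM in KO and 1.00 FPKM in WT. Sox10, under the minimum of 1 FPKM, was at 0.112 FPKM in KO and 0.0282 FPKM in WT. Of the 10 markers, 7 lay above the median log2 ratio of all genes and 3 below it. Hist4h4 has near-identical copies, so its level is uncertain. It was at 4.25 FPKM in KO and 13.9 FPKM in WT. Lrwd1, a gene of the origin recognition complex, was at 3.43 FPKM in KO and 9.15 FPKM in WT, and Tgoln2, of the trans-Golgi network, at 3.71 FPKM in KO and 9.43 FPKM in WT.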

How the data were processed

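RNA was extracted from 4 pooled ventricles per genotype, freed of ribosomal RNA with Ribo-Zero and prepared with the Script-Seq v2 kit, which keeps strand, per the labels' protocols for the kits. Per the labels, the WT run stopped early and its bases were called by hand, possibly with a filter on read length, while the KO run went through the standard pipeline. The authors deposited 1 FPKM value per gene symbol and library. TopHat2 2.0.6, Bowtie2 2.0.2, Cufflinks 2.0.2 and mm9 are named in the submitters' processing notes. Annotation, strand settings and options are not given in the sources used here, so overlapping genes and near-identical copies may share reads.

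Log2 ratios were log2((KO + 1)/(WT + 1)) for the 11349 genes averaging 1 FPKM or more. With 1 library per genotype no test was possible. Members and lists were chosen with earlier results of these data known. Named genes were the members and, in each list, any gene 2-fold apart, the 2 most abundant and the 2 furthest from the median of all genes, of which some are not reported here. Others in the text (among them Bbc3, Pmaip1 and single markers) were chosen after their values were seen, as was the recovery of reads.

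Depth came from the FPKM values. Ratios of low genes gave a KO to WT depth of 1.26, with 59.3% of 2565 genes within 0.001% of a ratio of whole numbers up to 10. Among 318 genes with 1 GENCODE M21 transcript of at least 3000 nucleotides, implied WT depths peaked between 13000000 and 13200000 fragments, in 75 genes. Other peaks held at most 36. Reads of a member were taken where 1 pair of whole numbers, up to 400 in WT, met all of these conditions. The pair matched the ratio within 6 ppm and gave a length within 0.02 nucleotides of a whole number. That length also lay within 15% of an annotated GENCODE M21 transcript of the gene. Multiples of a pair fit the same ratio, so the reads and interval widths depend on this use of the annotation. A single pair was found for 6 of 8 members listed with 6 digits, at most 0.0051 nucleotides off. Intervals are exact (Clopper-Pearson) for 95% and cover counting error only. Reads after 15 PCR cycles without molecular identifiers are not independent molecules.

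Sequences and gene order came from RefSeq, where 9 of 10 members had a start-site window (not Bnip3l). Computations used Python 3.11.15, numpy 2.4.6, pandas 2.3.3, scipy 1.17.1 and matplotlib 3.10.9, and were checked on simulated data. That check covered the fold limit, the depth ratio and the ratio of reads, but not the reads and lengths themselves. Alternatives were pseudocounts, filters, fold limits and scalings.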

Additional observations from a re-analysis of the deposited data

How the results depend on the processing

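No paired analysis was possible because there was a single library of each genotype, and no library could be left out. With a pseudocount of 5 FPKM the log2 ratio of Bok was -0.79, short of the 2-fold limit, and the count of members at least 2-fold lower was 0. At a limit of 1.5-fold with no pseudocount, also added after seeing the data, it was 2 (Bok and Bid). A large pseudocount shrinks the ratios of low genes by construction. Under the other 6 alternatives Bok lay between -1.68 and -1.28 with a pseudocount of 0.1 or another scaling, and at -1.72 with no pseudocount, which was chosen after seeing the data. No alternative gave a member at least 2-fold higher. The median of the pro-death members lay between -0.49 and -0.22, and at -0.41 without Bok, also chosen after seeing the data. The median of the pro-survival members turned to -0.031 at a minimum mean of 5 FPKM, where Bcl2 drops out, and was otherwise between 0.079 and 0.24. The log2 ratio of the quotients kept its sign under all 13 alternatives, from -0.67 without Bnip3l to -0.074 with the other family genes added. Each of these alternatives reused members picked with earlier results of these data known, so the shared sign is a description and no independent support. Scalings brought the median of all genes from -0.11 to between -0.011 and 0.0081, and Bcl2l1 to between -0.045 and -0.022. The level of Bnip3l was then higher in KO, with a log2 ratio of 0.12 to 0.16. The counting intervals are set by depth and say nothing of the spread between embryos, which a single pooled library per genotype cannot give.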

Other observations

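Several family genes were at the edge of detection. Of the Bcl2a1 copies, which are near-identical leukocyte survival genes whose reads cannot be assigned with certainty, Bcl2a1b was at 0.591 FPKM in KO and 0.0565 FPKM in WT and Bcl2a1d at 0.0769 FPKM in KO and 0.855 FPKM in WT, so that their separate levels are uncertain. Hrk, a neuronal BH3-only gene, was at 0.0340 FPKM in KO and listed at 0 in WT. Bcl2l14 was listed at 0 in KO and at 0.138 FPKM in WT. Bcl2l10, an oocyte gene of the family, was listed at 0 in both libraries, as was the death ligand gene Fasl.

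The lengths recovered with the reads can be set beside annotated transcripts. Only lengths within 15% of an annotated transcript of the gene were kept, so that degree of nearness was fixed in advance. For Bad the length was 1452 nucleotides, which equals an annotated transcript in GENCODE M21. For Bax it was 869 nucleotides, against 867 for the nearest annotated transcript, for Bok 1432 against 1468, and for Bcl2l1 2371 against 2417. For Bak1 it was 2002 nucleotides against 1974, and for Bid 1891 against 2189. The annotation behind the deposited values is not given, so these differences were not followed further.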
